A study of Mus musculus with 21 samples.

Results

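Deoxynucleotide synthesis was examined through 6 genes, Rrm1, Rrm2, Tyms, Tk1, Dut and Dtymk, in sorted cells of mouse Patched medulloblastoma, a tumour of the cerebellum. The members were every probe set on the array whose platform annotation gives one of these symbols alone. This gave 16 of 45101 probe sets and 6 of 18193 genes with a single symbol, measured on all 21 arrays.

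The study sorted tumour cells by CD15, a carbohydrate epitope on the cell surface, and hybridised total RNA of the sorted cells to Affymetrix mouse expression arrays. Conventional Patched tumours gave 6 CD15 positive and 6 CD15 negative arrays. Tumours labelled math-1GFP, called Math1-GFP tumours here, gave 4 CD15 positive and 5 CD15 negative arrays. All groups are tumour cells from the cerebellum, and there is no array of normal cerebellum. In the Patched model Hedgehog signalling is released from its receptor. The conventional titles name Patched, and for the Math1-GFP arrays only the descriptions do. The titles name no age, strain, second Patched allele or number of animals, and Math1-GFP by its name marks cells in which the Math1 (Atoh1) promoter drives a fluorescent protein. The descriptions of the Math1-GFP samples call them conventional Patched tumours. The titles were followed for the groups, and the Patched model of these samples was taken from the descriptions. The labels do not tie replicates to animals, and a p-value here rests on variation among samples that may be technical.

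A cell that copies its DNA needs a supply of the 4 deoxynucleoside triphosphates. Ribonucleotide reductase makes deoxynucleotides from ribonucleotides and is built from a large subunit, Rrm1, which holds the catalytic and control sites, and a small subunit, Rrm2, which holds the tyrosyl radical and is destroyed after S phase. Thymidylate is made by thymidylate synthase (Tyms) from dUMP, which the dUTPase Dut supplies while it removes dUTP, or is salvaged from thymidine by thymidine kinase (Tk1), and thymidylate kinase (Dtymk) takes the product of both routes one step towards dTTP. In the young cerebellum, Hedgehog signalling drives the division of granule neuron precursors, the cells from which these tumours arise.

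In the RefSeq annotation of the mouse build GRCm38.p6, Rrm1 lies at chr7:102441695-102469771 and Rrm2 at chr12:24708254-24714146. Tyms lies at chr5:30038546-30073645, Tk1 at chr11:117815519-117826087, Dut at chr2:125247248-125259049 and Dtymk at chr1:93792576-93802068. The deposited values name no build. The 100 bases before the RefSeq start of both reductase subunits are shown because these genes are known as targets of E2F factors and of the CCAAT-binding factor NF-Y, and because both differed between the CD15 fractions in the conventional tumours. Capitals mark the E2F core TTCCCGC and the CCAAT box, on the plus strand of GRCm38.p6, for Rrm1 at chr7:102441595-102441694 and for Rrm2 at chr12:24708154-24708253.
Rrm1: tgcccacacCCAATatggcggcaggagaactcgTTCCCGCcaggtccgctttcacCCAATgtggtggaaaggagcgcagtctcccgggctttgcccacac
Rrm2: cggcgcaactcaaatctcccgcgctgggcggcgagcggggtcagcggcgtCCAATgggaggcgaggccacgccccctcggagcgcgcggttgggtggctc
The Rrm1 stretch holds 1 E2F core, 67 to 61 bases before the start, between 2 CCAAT boxes at 91 to 87 and 45 to 41 bases before it. The Rrm2 stretch holds 1 CCAAT box, 50 to 46 bases before the start, and its E2F core lies further off, on the opposite strand 235 to 229 bases before the start.

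All 6 members had a RefSeq promoter entry, and their 250 bases before the start were searched on both strands for 4 motifs picked after the values were seen. The E2F core, searched as TTCCCGC and also as TTCGCGC, next as TTGCCGC, and lastly as TTGGCGC, was found in Rrm1, Rrm2 and Dtymk, and in 7.89% of 32851 promoters. A CCAAT box was found in the same 3 members and in 33.8% of promoters. The GC box GGGCGG was found in Rrm2, Tyms, Tk1 and Dut and in 32.7% of promoters. The cell cycle element letters TTTGAA were in none of the 6 and in 16.0% of promoters. These matches describe the letters of 1 window per gene. The starts listed for Tyms, Tk1, Dut and Dtymk lie inside their annotated genes, so their windows are not printed.

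The deposited values are linear intensities, called signal here, and every array had the same trimmed mean of 150.0. Median signal per array ran from 22.1 to 32.7. Markers of granule neuron precursors and Hedgehog tumour cells were past the filter on dim probe sets for 14 of 14 genes. Their summed signal overlapped between all groups (24413 to 33876 in conventional CD15 positive, 26689 to 41125 in conventional CD15 negative, 32570 to 38491 in Math1-GFP CD15 positive and 30790 to 44978 in Math1-GFP CD15 negative arrays). At a limma adjusted p under 0.05, 2 of the 14 genes were higher and 1 lower in conventional CD15 positive cells. Of all genes 8.13% passed there. Between the CD15 fractions of Math1-GFP tumours 0 of the 14 passed. Microglial markers passed for 13 of 14 genes and were uneven among conventional arrays, with summed signal from 437 to 15116, against 353 to 2610 in Math1-GFP arrays. The 3' to 5' signal ratio of the Gapdh control was 0.78 to 0.97 in conventional and 0.69 to 0.77 in Math1-GFP arrays. All conventional titles end in le1 and all Math1-GFP titles in le2, so whatever that code marks cannot be told apart from the tumour model. Math1-GFP CD15 positive array 1 stood furthest from its group, with a mean correlation of 0.931 to the others. The conventional arrays fell into 2 sets, numbers 2 to 5 and number 6 with the unnumbered arrays, with a mean correlation of 0.958 within sets and 0.928 between them.

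Of the members' 16 probe sets, 14 were past the filter, which kept probe sets with a mean log2 signal in the upper 60% of all (a signal of about 15.5). The probe sets that represent Rrm1, Rrm2, Tk1, Dut and Dtymk, chosen as the brightest of each gene over all arrays, lay between the 92.1st and the 98.6th percentile of brightness. Thymidylate synthase was the exception. Tyms was covered by 4 probe sets, of which 2 were below the filter, with signals of 0.24 to 18.0 and 0.41 to 20.7. Its brightest probe set, at the 60.3rd percentile, ran from 27.3 to 74.1, so the test of Tyms has little signal behind it. A further bright probe set, 1424991_s_at, is annotated to both Tyms and its pseudogene Tyms-ps. It belongs to no single gene and is given apart.

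**Figure D1:**
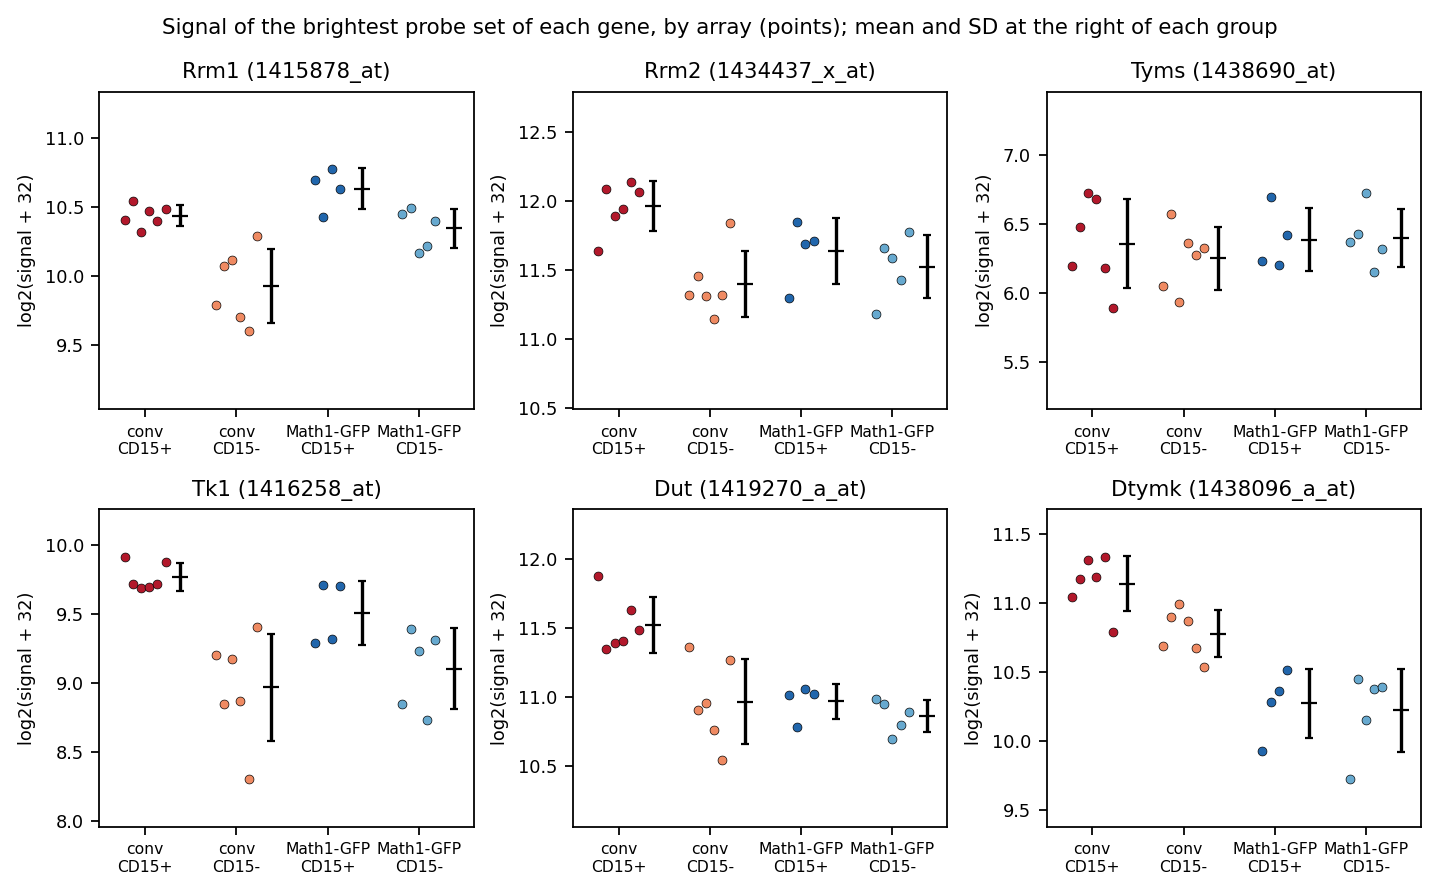
Signal of the brightest probe set of each member on a log2 axis for all 21 arrays, in 4 groups of 6, 6, 4 and 5 arrays, with points for arrays and a bar for the mean ± SD of each group. Rrm1 and Tk1 separate the conventional CD15 positive from the CD15 negative arrays, Dtymk separates the tumour models within each fraction, and Tyms stays between 27.3 and 74.1 with all groups overlapping. The share of all genes that separate was not counted.

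The first comparison was between the CD15 fractions of conventional tumours. Both subunits of ribonucleotide reductase, thymidine kinase and dUTPase rose in CD15 positive cells, by 1.42-fold to 1.74-fold. Thymidylate kinase was 1.29-fold higher and did not pass the test, and the dim Tyms probe set was at 1.08-fold. Thus 4 of 6 members were called higher and none lower at an adjusted p of 0.05 in limma. Over all 12367 genes tested, 8.13% were called in either direction and 3.05% were called higher. Fold changes are on the log2(signal + 32) scale, which understates the change of dim genes. In these bulk sorts, fewer cells that express a gene and less RNA per cell cannot be told apart.

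Rrm1, the large subunit of the reductase, had signals from 1249 to 1462 (median 1359) in the 6 CD15 positive arrays and from 745 to 1220 (median 949) in the 6 CD15 negative arrays. Every positive array was above every negative array, and how many of all genes separate in this way was not counted. The log2 difference was 0.51 ± 0.11 (SE, limma adjusted p = 0.0071). Rrm2, the small subunit, had signals from 3168 to 4484 (median 4087) in positive and from 2240.5 to 3649.9 (median 2525) in negative arrays. The groups overlapped by 1 array on each side: 5 of 6 positive arrays were above all negatives, and the highest negative array was number 6. The difference was 0.56 ± 0.13 (adjusted p = 0.010). After quantile normalization the Rrm2 difference was 0.40 and did not pass (adjusted p = 0.115, against 0.0029 to 0.88 over all its alternatives).

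Tk1, which phosphorylates salvaged thymidine, showed the largest difference of the members. Its signal ran from 790.4 to 929 (median 809) in CD15 positive and from 284 to 645 (median 489.5) in CD15 negative arrays, without overlap. The log2 difference was 0.80 ± 0.16 (limma adjusted p = 0.0035). Dut, which hydrolyses dUTP and so keeps uracil out of DNA, ran from 2572 to 3744 (median 2763) in positive and from 1459 to 2605 (median 1926) in negative arrays. Here 5 of 6 positive arrays lay above all negatives, and the difference was 0.56 ± 0.13 (adjusted p = 0.0095). Dtymk, the kinase on which both thymidylate routes meet, ran from 1741 to 2546 (median 2294) in positive and from 1453 to 2007 (median 1733) in negative arrays. Again 5 of 6 positive arrays were above all negatives, but the difference of 0.36 ± 0.13 did not pass (adjusted p = 0.108). It passed with the mean of the gene's probe sets (0.46, adjusted p = 0.010) and without Math1-GFP arrays 1 and 2, which share the estimate of spread (adjusted p = 0.035), within a range of 0.010 to 0.85 over all alternatives. Tyms ran from 27.3 to 73.9 (median 49.3) in positive and from 29.1 to 63.2 (median 46.8) in negative arrays, and its difference was 0.11 ± 0.15 (adjusted p = 0.743).

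The probe set shared by Tyms and Tyms-ps ran from 724 to 1362 (median 989.7) in CD15 positive and from 551 to 789 (median 666) in CD15 negative conventional arrays. Its log2 difference of 0.58 ± 0.13 passed (limma adjusted p = 0.0097). The 2 tested probe sets annotated to Tyms alone did not pass. The annotation does not say how much of its signal comes from either gene.

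Conventional arrays numbered 2 to 6 pair a CD15 positive with a CD15 negative array of the same number, and their deviations from the group means moved together. The pairs were read on the brightest probe set of each gene. Rrm1, Rrm2, Tk1, Dut and Dtymk were each higher in the positive array of 5 of 5 pairs. The log2 difference within a pair was 0.20 to 0.80 for Rrm1, 0.22 to 0.82 for Rrm2, 0.47 to 1.41 for Tk1, 0.22 to 1.09 for Dut and 0.26 to 0.65 for Dtymk. Tyms was higher in 2 of 5 pairs, with differences from -0.44 to 0.79. The shared Tyms and Tyms-ps probe set was higher in 5 of 5, by 0.04 to 0.97. Of the other probe sets past the filter, Rrm2 1416120_at, Dut 1419269_at and Tyms 1442192_at were higher in 4 of 5 pairs. Rrm1 1440073_at was higher in 3 of 5, and Rrm1 1448127_at, Rrm2 1448226_at and the other Dtymk probe sets in 5 of 5. The share of all genes higher in 5 of 5 pairs was not counted.

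**Figure D2:**
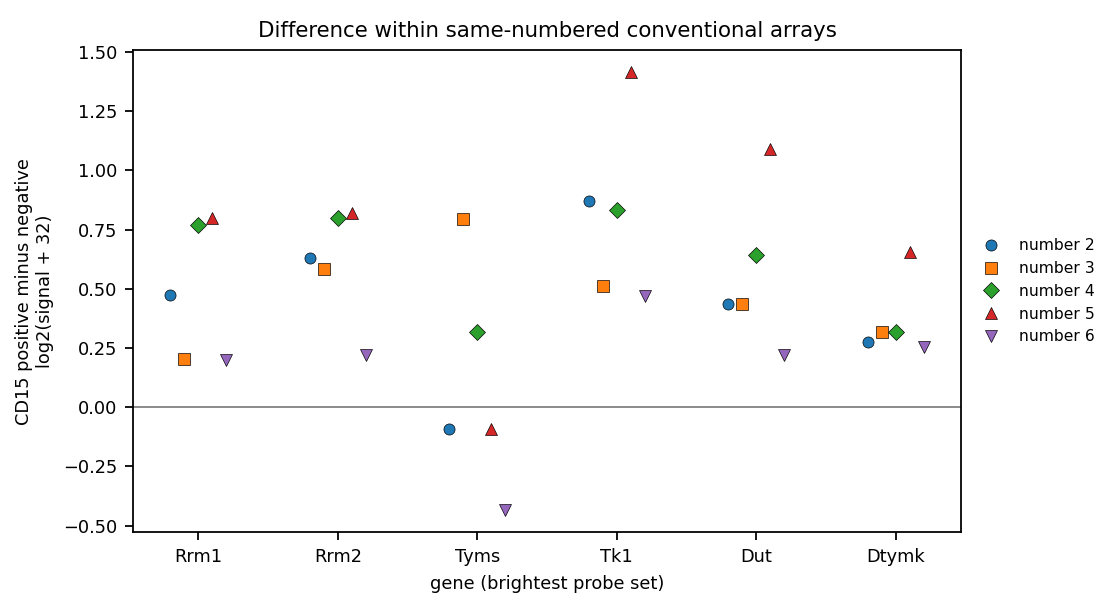
Log2 difference of CD15 positive minus CD15 negative signal within each of the 5 same-numbered pairs of conventional arrays (numbers 2 to 6), with 1 panel position per member and 1 point per pair, and 0 marked by a line. Each member is shown by its brightest probe set. All 5 pairs lie above 0 for Rrm1, Rrm2, Tk1, Dut and Dtymk, and 2 of 5 for Tyms.

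The CD15 difference was also taken within each set of conventional arrays, and the sets were not tested against each other. With conventional numbers 2 to 5 only, the log2 difference was 0.56 for Rrm1, 0.71 for Rrm2, 0.91 for Tk1 and 0.65 for Dut, all called (limma adjusted p = 0.0036 to 0.017), and 0.39 for Dtymk (adjusted p = 0.145). With only number 6 and the unnumbered arrays, 2 positive and 2 negative, it was 0.41 for Rrm1, 0.27 for Rrm2, 0.59 for Tk1, 0.37 for Dut and 0.30 for Dtymk. None of these was called, with adjusted p from 0.571 to 0.881, and Tyms was at -0.145.

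Most genes had more than one probe set, and these were fitted separately over 23211 probe sets. In conventional tumours 7 of the 14 members' probe sets were called higher in CD15 positive cells and none lower, against 2.07% of all probe sets called higher. For Rrm1 both bright probe sets passed, the other one, 1448127_at, at 0.57 ± 0.12 (limma adjusted p = 0.0083), while the dim 1440073_at (2.01 to 36.4) was at 0.04. For Rrm2, 1448226_at passed at 0.58 ± 0.15 (adjusted p = 0.025) and 1416120_at did not, at 0.35 ± 0.11 (adjusted p = 0.072). Dut 1419269_at was at 0.45 ± 0.17 (adjusted p = 0.13). The Dtymk probe sets disagreed in their calls. Dtymk 1449116_a_at ran from 1254 to 1499.7 (median 1345) in positive and from 681 to 1059 (median 923) in negative arrays, without overlap, and was called at 0.59 ± 0.11 (adjusted p = 0.0023). Dtymk 1452681_at did not pass at 0.43 ± 0.14 (adjusted p = 0.075), like the brightest of the 3.

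**Figure D3:**
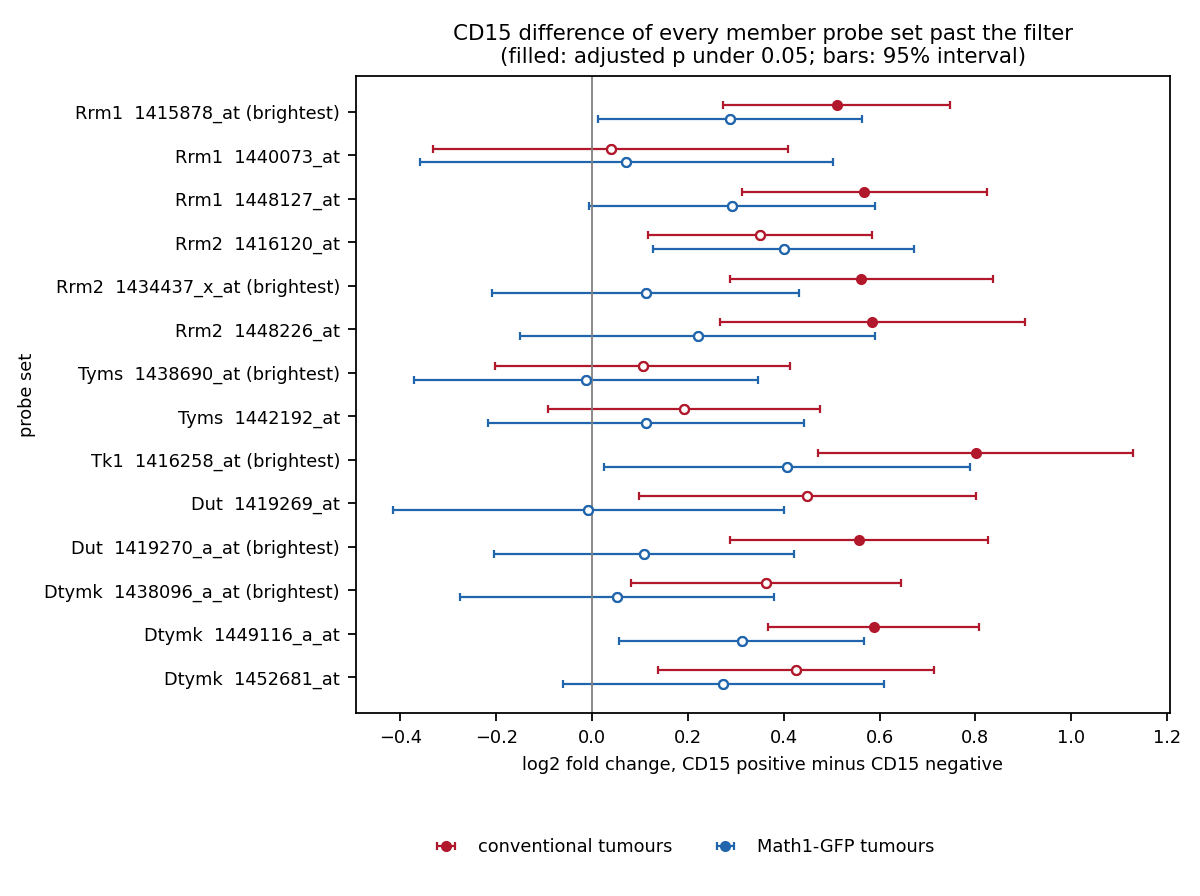
Log2 difference of CD15 positive minus CD15 negative signal for the 14 members' probe sets past the filter, in conventional (red) and Math1-GFP (blue) tumours, with 95% confidence intervals and filled points where the limma adjusted p is under 0.05. In conventional tumours 7 of 14 points are filled and in Math1-GFP tumours 0 of 14.

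The second comparison asked the same question in Math1-GFP tumours, with 4 CD15 positive and 5 CD15 negative arrays. No member passed there, against 0.0404% of all genes called in either direction (5 of 12367). At an unadjusted p under 0.05 limma gave 2 of 6 members, Rrm1 and Tk1, and 1073 of all genes. Rrm1 signals were 1348, 1558, 1633 and 1720.1 in positive arrays and 1119, 1161, 1322, 1366 and 1412 in negative arrays. Thus 3 of 4 positive arrays lay above all negatives, and array 5 lay among them. The difference was 0.29 ± 0.13 (95% interval 0.017 to 0.56, unadjusted p = 0.039, adjusted p = 0.53). Tk1 signals were 594, 606, 801 and 805 in positive and 393, 427, 567, 601 and 637 in negative arrays. Positive arrays 5 and 9 were above all negatives, arrays 1 and 7 were not, and the difference was 0.41 ± 0.18 (unadjusted p = 0.038, adjusted p = 0.53).

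The other members overlapped more widely in Math1-GFP tumours. Rrm2 signals were 2487, 3282, 3325 and 3671 in CD15 positive and 2294, 2726, 3044, 3216 and 3476 in CD15 negative arrays, a difference of 0.11 ± 0.15 (limma adjusted p = 0.92). Dut signals were 1731, 2041, 2053 and 2104 in positive and 1627, 1746, 1867, 1948 and 1995 in negative arrays, also a difference of 0.11 ± 0.15 (adjusted p = 0.92). For Dut 3 of 4 positive arrays were above all negatives and array 5, the lowest, was below 4 of 5 of them. Dtymk signals were 944, 1217, 1284 and 1436 in positive and 817, 1109, 1303, 1315 and 1368 in negative arrays (0.05 ± 0.16, adjusted p = 0.97). Tyms signals were 41.6, 43.4, 53.6 and 71.7 in positive and 39.2, 47.8, 50.7, 54.3 and 74.1 in negative arrays (-0.01 ± 0.17, adjusted p = 0.99). Arrays 1 and 2 were the lowest of their groups for Rrm2 and Dtymk.

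By probe set, 0 of 14 were called in Math1-GFP tumours, as were 0.00% of all probe sets, with 1820 of 23211 at an unadjusted p under 0.05. All positive arrays were above all negative arrays for 3 of the 14, none of which is the brightest of its gene. The share of all probe sets that separate in this way was not counted, here or in the other comparisons. For Rrm2 1416120_at the positive arrays had 1133, 1203, 1303 and 1331 and the negative arrays 880.0, 885, 900.3, 917 and 1093, without overlap (0.40 ± 0.13, limma unadjusted p = 0.0060, adjusted p = 0.31). For Rrm1 1448127_at the positive arrays ran from 1293 to 1538 and the negative from 1068 to 1277. For Dtymk 1449116_a_at they ran from 836 to 1085 and from 644 to 815 (0.31, unadjusted p = 0.019, adjusted p = 0.47). None of these 3 passed. The other 11 overlapped, among them Rrm2 1448226_at (0.22 ± 0.18), Dtymk 1452681_at (0.27 ± 0.16) and Dut 1419269_at (-0.01 ± 0.20).

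Whether the CD15 difference itself differed between the tumour models was tested with an interaction term. The difference was smaller in Math1-GFP tumours for all 6 members, by 0.22 ± 0.17 for Rrm1, 0.45 ± 0.20 for Rrm2, 0.39 ± 0.24 for Tk1, 0.45 ± 0.20 for Dut, 0.31 ± 0.21 for Dtymk and 0.12 for Tyms on the log2 scale. None passed in limma (adjusted p = 1.00 for each), and 0.00% of all genes did. At an unadjusted p under 0.05 there were 279 of 12367 genes, among them Rrm2 (0.036) and Dut (0.033). A difference of the CD15 effect between the models was thus not established for any member.

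Averaged over both models, 4 of 6 members were called higher in CD15 positive cells, against 3.77% of all genes. The contrast uses the same arrays as the comparisons above. Rrm1 was at 0.40 ± 0.09 (limma adjusted p = 0.0047), Tk1 at 0.60 ± 0.12 (adjusted p = 0.0028), Rrm2 at 0.34 ± 0.10 (adjusted p = 0.037) and Dut at 0.33 ± 0.10 (adjusted p = 0.035). Rrm2 and Dut each lost the call in 15 of 35 alternatives, several of which left out 1 array, and 4 dropped to 2 without conventional CD15 positive array 5, without conventional CD15 negative array 4 or 5, without Math1-GFP CD15 positive array 7 or 9, or without Math1-GFP CD15 negative array 8. Dtymk was at 0.21 ± 0.10 (adjusted p = 0.225) and Tyms at 0.05 (adjusted p = 0.85).

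The third comparison set Math1-GFP against conventional tumours within each fraction. Thymidylate kinase was lower in Math1-GFP tumours in both fractions, and dUTPase was lower in the CD15 positive cells. Rrm1 was higher in the CD15 negative cells, and Tk1 and Rrm2 did not pass in either fraction. In CD15 positive cells 2 of 6 members were called lower, against 12.2% of all genes called lower, and none higher. In CD15 negative cells 1 was called higher and 1 lower, against 18.4% of all genes called in either direction. On the average of both fractions 1 was called higher and 2 lower, against 39.2% of all genes. Same-numbered conventional arrays of the CD15 fractions varied together, and the fit treats them as independent. Standard errors and p-values on the average of fractions thus tend to be too small, and more genes are called. This holds for every value given on that average. Another scaling shifted this background: of the genes called on that average, 2309 were higher and 2536 lower as deposited (47.7% higher), against 1796 and 3055 after quantile normalization (37.0% higher). In CD15 positive cells the share called higher went from 47.2% to 35.5%. The Gapdh ratio, microglial signal and title code given above also separated or shifted between the models. Of the 14 markers of granule neuron precursors and Hedgehog tumour cells, 6 were called higher and 0 lower in Math1-GFP tumours on the average of fractions (median 0.20). This stands against 2309 of 12367 genes called higher. Summed signal of oligodendrocyte lineage markers was 1077 to 1834 in conventional and 2396 to 3844 in Math1-GFP CD15 positive arrays, without overlap, and 1327 to 2009 and 1442 to 3103 in CD15 negative arrays. Of 7 such genes past the filter, 2 were called higher and 1 lower in Math1-GFP tumours on the average of fractions. The higher ones were Pdgfra at 1.75 (limma adjusted p = 7.9e-05) and Mbp at 0.63 (adjusted p = 0.0024). The lower one was Cnp at -0.76 (adjusted p = 0.038), and Olig1, Olig2, Sox10 and Cspg4 were not called. The part of these in the members' differences was not tested.

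For Dtymk, every Math1-GFP array was below every conventional array of the same fraction, 944 to 1436 against 1741 to 2546 in CD15 positive and 817 to 1368 against 1453 to 2007 in CD15 negative cells. The share of all genes separated between the models was not counted. The log2 difference was -0.87 ± 0.15 in positive cells, 0.548 of the conventional level (limma adjusted p = 4.0e-04), and -0.56 ± 0.14 in negative cells (adjusted p = 0.0095). On average it was -0.71 ± 0.10 (adjusted p = 2.2e-05). Against conventional number 6 and the unnumbered arrays only, the Dtymk difference was -0.64 in positive (adjusted p = 0.0906) and -0.39 in negative cells (adjusted p = 0.297), neither called, and the average of fractions was still called (adjusted p = 0.027). Over all alternatives the adjusted p of Dtymk was 1.2e-04 to 0.091 in positive and 0.0035 to 0.30 in negative cells. For Dut the 4 positive Math1-GFP arrays (1731 to 2104) were below all conventional positive arrays (2572 to 3744), a difference of -0.55 ± 0.14 (adjusted p = 0.0087). In CD15 negative cells Dut differed by -0.10 (adjusted p = 0.63), with a sign that turned under some settings. Quantile normalization ended the call of Dut in positive cells (-0.30, adjusted p = 0.098, within 0.0013 to 0.098 over all alternatives) and on average (-0.12, adjusted p = 0.286, within 0.0020 to 0.29).

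For Rrm1 the Math1-GFP arrays were higher by 0.42 ± 0.12 in CD15 negative cells (limma adjusted p = 0.018) and by 0.31 ± 0.09 on average (adjusted p = 0.0082). Against number 6 and the unnumbered arrays only, the average for Rrm1 was 0.25 and not called (adjusted p = 0.152, within 2.3e-04 to 0.15 over all alternatives). In positive cells the difference was 0.19 (adjusted p = 0.277). It was called there after quantile normalization (0.34, adjusted p = 0.042) and with the mean of probe sets (0.30, adjusted p = 0.035), within 0.035 to 0.54 over all alternatives. The Rrm1 call in negative cells was lost when the 2 groups were fitted alone (adjusted p = 0.061) and against number 6 and the unnumbered arrays only (0.31, adjusted p = 0.298), within 0.0019 to 0.30 over all alternatives. Rrm2 was at -0.32 in positive (adjusted p = 0.116) and 0.13 in negative cells (adjusted p = 0.56). Tk1 was at -0.26 (adjusted p = 0.304) and 0.13 (adjusted p = 0.61), and Tyms at 0.03 (adjusted p = 0.92) and 0.15.

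The model difference depended on the probe set for both reductase subunits. By probe set, 7 of 14 were called in CD15 positive cells, 2 higher and 5 lower, against 26.2% of all probe sets called. In CD15 negative cells 5 of 14 were called, 3 higher and 2 lower, against 23.6%. Rrm1 1448127_at ran from 784 to 1004 in conventional positive and from 1293 to 1538 in Math1-GFP positive arrays, and from 386 to 772 and 1068 to 1277 in the negative arrays. All Math1-GFP arrays were above all conventional arrays of the same fraction, with differences of 0.70 ± 0.14 (limma adjusted p = 8.3e-04) and 0.98 ± 0.13 (adjusted p = 1.8e-05). Rrm2 1416120_at was likewise separated, 753 to 921 against 1133 to 1331 in positive and 480.2 to 812 against 880.0 to 1093 in negative cells. Its differences were 0.57 ± 0.13 (adjusted p = 0.0023) and 0.52 ± 0.12 (adjusted p = 0.0030), while the brightest Rrm2 probe set had opposite signs in the 2 fractions and no call. No direction between the models can therefore be given for Rrm2 as a gene.

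All 3 Dtymk probe sets were called lower in CD15 positive Math1-GFP cells (-0.87, -0.56 and -0.57; limma adjusted p = 3.0e-04 to 0.0095) and 2 of 3 in CD15 negative cells. Both Dut probe sets were called lower in CD15 positive cells (-0.55 and -0.65). The probe set shared by Tyms and Tyms-ps ran from 492 to 613 in Math1-GFP positive and from 377 to 536 in Math1-GFP negative arrays, below all conventional arrays of the same fraction. It differed by -0.79 ± 0.15 (limma adjusted p = 9.3e-04) and -0.51 ± 0.14 (adjusted p = 0.016).

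**Figure D4:**
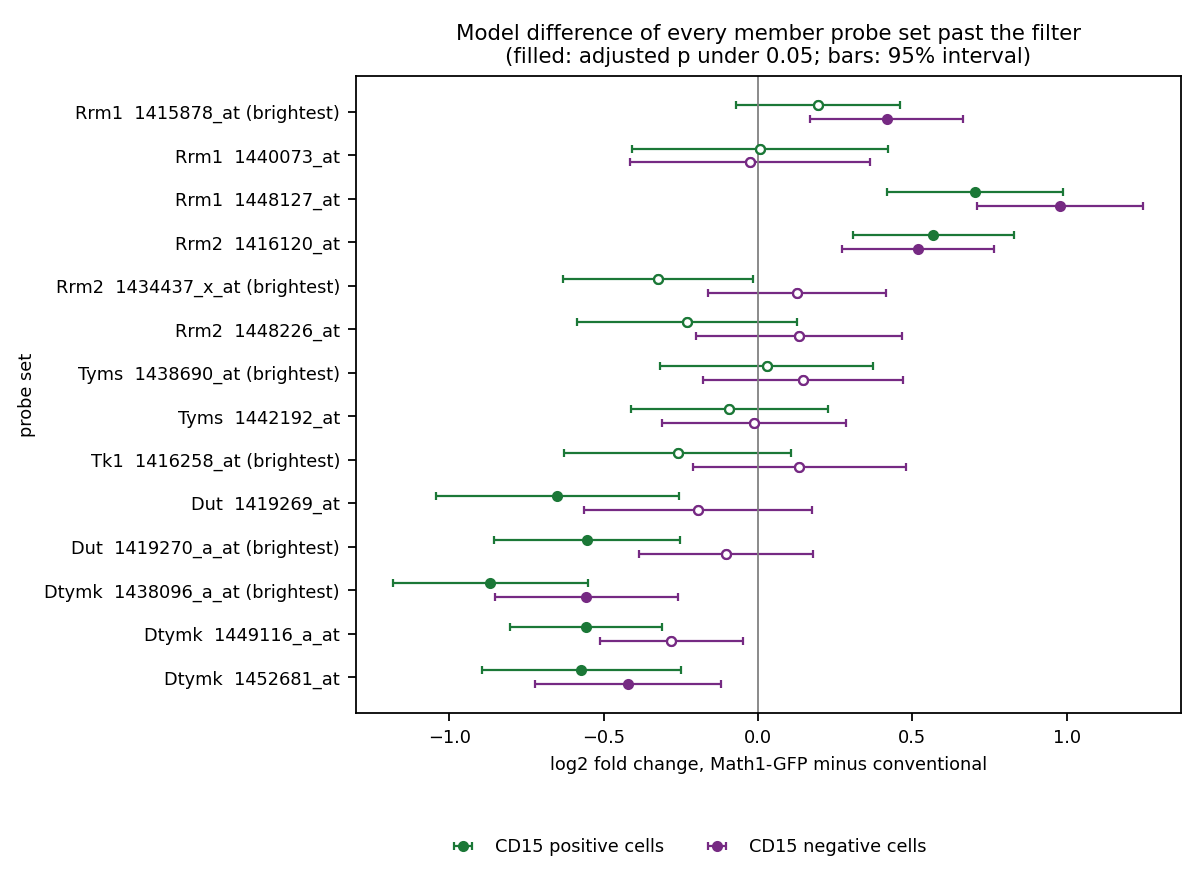
Log2 difference of Math1-GFP minus conventional signal for the 14 members' probe sets past the filter, in CD15 positive (green) and CD15 negative (purple) cells, with 95% confidence intervals and filled points where the limma adjusted p is under 0.05. Dtymk and Dut probe sets lie to the lower side in CD15 positive cells, and 1 probe set each of Rrm1 and Rrm2 lies to the higher side in both fractions.

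The members' neighbours in nucleotide metabolism were described by lists, and no list was tested as a set. The members' median log2 difference between CD15 fractions of conventional tumours was 0.53, and that of all genes tested was -0.017. In Math1-GFP tumours the medians were 0.11 and 0.0048. Of 19 genes of deoxynucleotide salvage and turnover, 2 rose in conventional CD15 positive cells and none fell (median 0.075). These were Dctpp1, which hydrolyses dCTP (0.54 ± 0.11, limma adjusted p = 0.0058), and the nucleoside diphosphate kinase Nme2 (0.43 ± 0.13, adjusted p = 0.043). Of 11 genes of the folate cycle that serves thymidylate synthase, 1 rose, the serine hydroxymethyltransferase Shmt1 (0.56 ± 0.14, adjusted p = 0.014). Of 8 genes of pyrimidine synthesis and pyrimidine nucleoside salvage none passed. Cad, which starts the synthesis, had the smallest p (0.42, adjusted p = 0.079). Cad passed on the average of both models (0.39, adjusted p = 0.027).

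Of 11 genes of purine synthesis, 4 rose in conventional CD15 positive cells and none fell (median 0.30). They were Prps2, which makes the phosphoribosyl donor (0.52, limma adjusted p = 0.0064), and the pathway enzymes Gart (0.41, adjusted p = 0.014), Paics (0.40, adjusted p = 0.016) and Adsl (0.52, adjusted p = 0.035). Of 9 genes of the thioredoxin and glutaredoxin systems, which return electrons to ribonucleotide reductase, 1 rose, thioredoxin itself (Txn1, 0.50 ± 0.10, adjusted p = 0.0035). Of 13 genes that regulate the members' transcription or breakdown, 5 rose and none fell (median 0.44). Cyclin A (Ccna2) was at 0.91 (adjusted p = 0.0020), Cdc20, an activator of the anaphase-promoting complex, at 0.82 (adjusted p = 0.0035), the repressor E2f8 at 0.72 (adjusted p = 0.0093) and Fzr1, the other activator of that complex, which marks Rrm2 and Tk1 for breakdown in G1 or mitosis, at 0.45 (adjusted p = 0.018). In Math1-GFP tumours no gene of these 6 lists passed.

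Between the models, on the average of fractions, 39.2% of all genes were called, and the calls in these lists are to be read against that share. Of the salvage and turnover list, 3 of 19 genes were higher and 6 lower in Math1-GFP tumours, among the latter Dctpp1 (-0.73), the oxidised dGTP hydrolase Nudt1 (-0.86), the deoxynucleotidase Nt5c (-0.76) and Nme2 (-0.69). Rrm2b, the small reductase subunit induced by p53, was one of the 3 higher ones (0.27 ± 0.10, limma adjusted p = 0.042). The 9 genes of the thioredoxin and glutaredoxin systems are not all electron donors. Of these, 3 were higher, with glutathione reductase (Gsr) at 0.53, and 4 lower, with Glrx2 at -0.90, Txn1 at -0.78 and Txn2 at -0.37. Of 11 purine genes 3 were higher (Impdh1 0.76, Ppat 0.57, Adss 0.28) and 2 lower, with Pfas at -0.37. Of 8 pyrimidine genes 2 were lower, Uckl1 (-0.57) and Ctps2 (-0.36), and of 11 folate genes 1 was higher, the folate carrier Slc25a32 (0.35). Of 13 regulators 5 were higher, with E2f8 at 0.59, Ccnf, the cyclin that targets Rrm2 for breakdown, at 0.53, Fzr1 at 0.34 and E2f1 at 0.30, and none lower.

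Of 27 genes of the DNA replication machinery, which uses the members' products, 10 rose in conventional CD15 positive cells, none fell, and the median was 0.45. In Math1-GFP tumours 0 of 27 passed (median 0.11), and 0 of 27 passed the interaction test (median -0.34). Of 17 genes of G2 and M phase, 16 rose in conventional tumours (median 0.82) and 1 in Math1-GFP tumours, Birc5 (0.74 ± 0.12, limma adjusted p = 0.030), although the list's median there was also 0.74. The members' medians of 0.53 and 0.11 thus stand beside 0.45 and 0.11 for the replication genes and 0.82 and 0.74 for the G2 and M genes. These medians were not tested against each other. Cdc20 is in both the regulator and the G2 and M list.

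**Figure D5:**
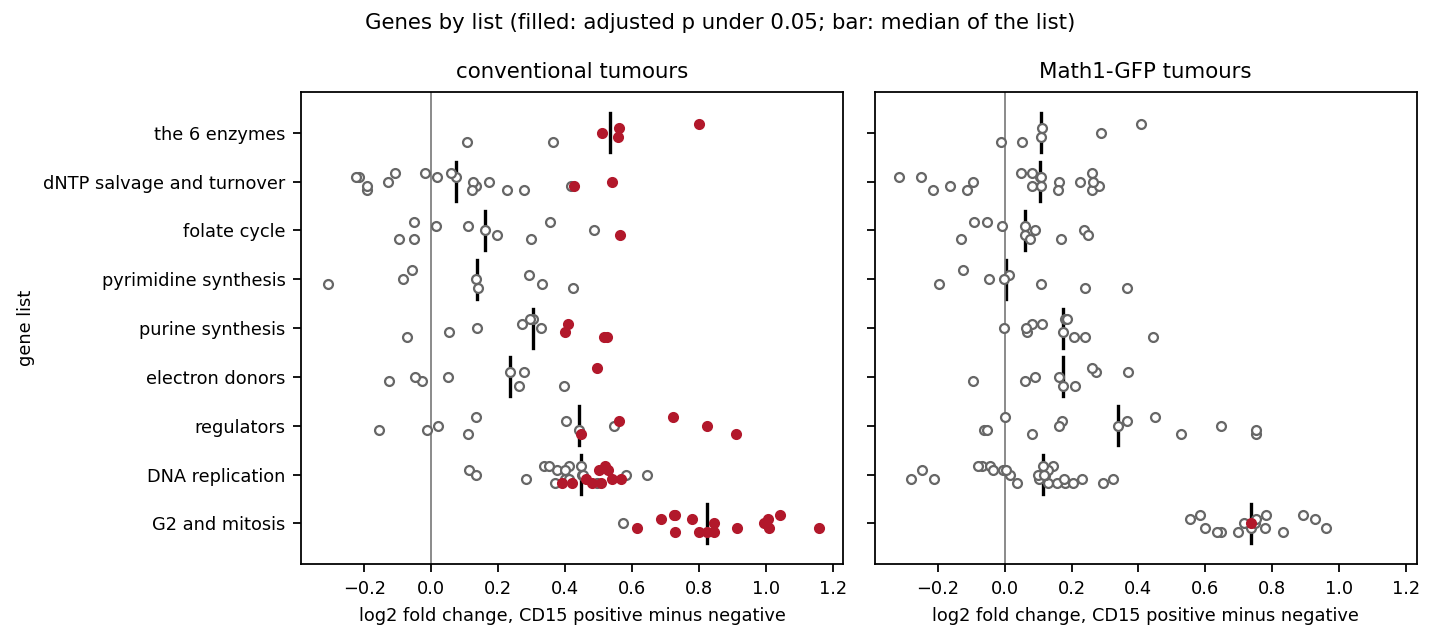
Log2 difference of CD15 positive minus CD15 negative signal for each gene of 9 lists, in conventional and Math1-GFP tumours, with 1 point per gene, filled where the limma adjusted p is under 0.05, and a bar for the list's median. The members' median is 0.53 in conventional and 0.11 in Math1-GFP tumours, and the G2 and M list's is 0.82 and 0.74.

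Markers of other cell types also varied between the fractions. Of 12 genes of differentiating neurons past the filter, 9 were called lower in conventional CD15 positive cells (median -1.01) and 0 in Math1-GFP CD15 positive cells (median -0.69). Their summed signal was 6763 to 12116 in conventional CD15 positive and 14036 to 28417 in conventional CD15 negative arrays, without overlap. In Math1-GFP tumours it was 6939 to 12308 in positive and 11823 to 19934 in negative arrays. Microglial markers were higher in CD15 positive cells for 12 of 13 genes in each model, with a median of 0.61 in conventional and 0.46 in Math1-GFP tumours, and 0 of 13 were called in limma in either. At an unadjusted p under 0.05 there was 1 in conventional tumours, C1qa, and 0 in Math1-GFP tumours. On the average of fractions 12 of 13 were called lower in Math1-GFP tumours. Astrocyte markers were higher in CD15 positive cells for 9 of 10 genes in each model, with a median of 0.33 in conventional and 1.06 in Math1-GFP tumours, where Fabp7 was at 2.09 and Aqp4 at 1.41. None of the 10 was called in either model. On the average of models 1 was called, Aqp4, higher in CD15 positive cells (1.05, limma adjusted p = 0.044). At an unadjusted p under 0.05 in limma, conventional tumours had 1, Slc1a2, which was lower in CD15 positive cells (-0.73). Math1-GFP tumours had 3, all higher. Their summed signal was 3401 to 7634 and 3084 to 6269 in conventional CD15 positive and negative arrays, and 4128 to 10572 and 2539 to 4274 in the Math1-GFP ones. The part of neuronal, microglial or astrocyte RNA in the members' differences was not tested. Oligodendrocyte lineage markers had 0 of 7 genes called in either model. On the average of models 3 of 7 were higher in CD15 positive cells, and 1 was called, Olig1 (1.08, limma adjusted p = 0.019). Vessel wall markers had 0 of 10 genes called in either model, with a median of -0.50 in conventional and 0.20 in Math1-GFP tumours. Neutrophils carry CD15-type antigens in some species, and 6 of 10 of their markers were past the filter. The summed signal of these markers was 98.8 to 548 in conventional CD15 positive and 80.5 to 1886 in conventional CD15 negative arrays. In Math1-GFP arrays it was 113 to 4541 in positive and 85.8 to 468 in negative ones. Markers of red cells, with 3 genes on the array, were all below the filter, at summed signals of 4.1 to 36.8.

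Within groups no relation between members was established. Over deviations from the group mean on 21 arrays, Pearson's r of the 15 pairs of members ran from -0.42 to 0.55 and was positive for 10. No pair passed after Benjamini-Hochberg adjustment over the 15 (permutation within groups, 2-sided, 1e+05 resamples). The highest r was that of Tk1 and Dut, 0.547, with rho 0.378 (permutation p = 0.034 and 0.13, adjusted 0.33 and 0.50), and it fell to 0.234 without the 2 arrays furthest from the median of Tk1. Rrm2 and Tk1 had r 0.509 and rho 0.582 (permutation p = 0.044 and 0.016, adjusted 0.33 and 0.23), and r was 0.429 without such 2 arrays. The subunits Rrm1 and Rrm2 had r 0.322, and 0.069 without 2 arrays. The lowest was Tyms with Dut, at -0.418.

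The genes most like each member in the same deviations were listed among 12361 others as a description. The arrays share one scaling, so these correlations carry no p. Rrm2 varied most like Fam111a (0.84), Cdkn2d (0.82) and Pimreg (0.82), and Tk1 most like Dnajb1 (0.85), Hspb1 (0.84) and Aurka (0.84). Dut varied most like Nup88 (0.86), Tex30 (0.86) and Cdt1 (0.85), and Dtymk like Txndc15 (0.93), Ppil3 (0.91) and Dus4l (0.90). Rrm1 varied most like Ppp1ca (0.82), Gnai3 (0.80) and Kpna3 (0.79). The dim Tyms probe set was closest to Arhgef10 (0.80), Vamp1 (0.75) and Ang4 (0.72). No gene was among the 3 nearest of more than one member.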

How the data were processed

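RNA of sorted tumour cells was measured on 21 arrays. The authors' deposited values are linear intensities of 45101 probe sets, and the steps that produced them are not given in the sources used here; the trimmed mean (2% at each end) was 150.0 on every array. Probe sets were named from the platform annotation (34958 with 1 symbol, 932 with several, 9211 with none). The values were analysed as log2(signal + 32), without 64 control probe sets and without probe sets under the 40th percentile of the mean. Each gene was represented by its brightest probe set. limma 3.58.1 in R 4.3.3 fitted 4 group means (17 residual degrees of freedom) with 7 contrasts, 2-sided, and Benjamini-Hochberg adjustment over 12367 genes within each contrast. The procedure was tested on simulated data. The simulated arrays varied independently, without the pairs and sets of the conventional arrays, so this does not show the error rates in these data.

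The members, gene lists and tests were chosen with earlier results of these data known. All 6 members were named. From each related list, called genes were named, at most the 4 of smallest p in a contrast, or the 1 of smallest p where none passed. Motifs came last. Same-numbered conventional arrays correlated in their deviations (0.583 to 0.757, against -0.555 to 0.396 for other numbers; 5 of 5 closest to their own number), so the numbers were taken to pair them. Math1-GFP numbers do not repeat across fractions. Alternatives were another scaling, pseudocount and filter, the mean of probe sets, 2 groups alone, the number as a block, array sets and each array left out. At this number of arrays precision is limited by the arrays.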

Additional observations from a re-analysis of the deposited data

Results flagged for a closer look

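One array stood apart from its group. In Math1-GFP CD15 positive cells, Dut had a signal of 1731.13 on array 5, with the next array at 2041.36, and the gap took up 0.844 of the group's range, just over Dixon's 95% critical value for 4 samples. This was 1 of 24 groups of a member, and chance flags about 1 in 20. The cause was not tested.

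A signal appeared in a probe set that no single member owns. The probe set annotated to both Tyms and Tyms-ps was higher in CD15 positive than negative cells of conventional tumours (log2 difference 0.58) and lower in Math1-GFP than conventional tumours on the average of fractions (-0.65). Both differences passed in limma (adjusted p = 0.0097 and 5.9e-05), while the dim probe sets of Tyms alone did not pass.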

How the results depend on the processing

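Counts are of the 6 members called. With number 6 and the unnumbered arrays as the only conventional arrays, the count fell from 4 to 0 for CD15 in conventional tumours, from 4 to 0 on the average of models, from 2 to 1 (Dut) for the model in CD15 positive cells and from 2 to 0 in CD15 negative cells. On the average of models quantile normalization left 2 (Rrm1 and Tk1), and leaving out 1 array gave 2 to 4. For the model in CD15 negative cells the fit of 2 groups alone left 1 (Dtymk). Leaving out 1 array changed no other count of called members: it stayed at 4 for CD15 in conventional tumours, 0 in Math1-GFP tumours and for the interaction, 2 for the model in each fraction and 3 on the average of fractions. With the replicate block, the count in conventional tumours stayed at 4 (log2 difference of Rrm1 0.49, Rrm2 0.61, Tk1 0.82, Dut 0.57) and no member's call changed. Signs turned only for differences that were not called. In the model comparison of CD15 positive cells Rrm2 was at 0.0131 after quantile normalization and 0.0049 with the mean of probe sets. In CD15 negative cells Dut was at 0.0558 after quantile normalization and 0.0700 with numbers 2 to 5 only, and with number 6 and the unnumbered arrays only Rrm2 was at -0.0549 and Tk1 at -0.203. With those arrays Tyms was at -0.145 for CD15 in conventional tumours. Dtymk for CD15 in Math1-GFP tumours ran from -0.0716 to 0.166 with 1 array left out, below 0 without CD15 negative array 2 (-0.0716) or CD15 positive array 9 (-0.0300). The fit without Math1-GFP arrays 1 and 2 called 5 members in conventional tumours and 3 on the average of models. For CD15 in conventional tumours quantile normalization ended the call of Rrm2, and the mean of probe sets added that of Dtymk. For the model in CD15 positive cells both settings added Rrm1, and quantile normalization ended the call of Dut. Signal over background limits the test of Tyms.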
